A study of Homo sapiens with 9 samples.

Results

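The mRNAs of the ANP32 family and of SET were followed through RNA that had been pulled down with the axon guidance receptors DCC and Nrp1 from SH-SY5Y cells, a human neuroblastoma line. The 4 genes ANP32A, ANP32B, ANP32E and SET were taken by symbol out of 42785 genes in the count table. The choice was made knowing that ANP32E had the second most counts in the whole lysate, so the values of ANP32E against the lysate are given as a description, with no test. The libraries comprised 3 DCC-IP (RNA on beads carrying a mouse antibody to DCC), 3 Nrp1-IP (a rabbit antibody to Nrp1) and 3 Input (whole lysate). All 9 came from this line in serum-containing medium, with no treatment named. Lysis was done with cycloheximide, unlysed cells and nuclei were spun out, and the cDNA was amplified by PCR. A pulldown with control antibody was not analysed here, so binding to the beads and binding to a receptor cannot be told apart for a given mRNA. The study reports, from a Bioanalyzer gel, that RNA came down with DCC and Nrp1 but not with control IgG. By quantitative PCR in SH-SY5Y cells, it also reports more ribosomal RNA with both receptors than with IgG.

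ANP32 proteins carry leucine-rich repeats followed by a long acidic tail. ANP32A, also known as pp32, inhibits protein phosphatase 2A (PP2A) and, with SET, forms part of a complex that shields histones from acetylation. SET is likewise a PP2A inhibitor, and also a histone chaperone of the nucleosome assembly protein family. ANP32B is a histone chaperone, and ANP32E removes the histone variant H2A.Z from nucleosomes. ANP32A and ANP32B also bind the RNA-binding protein HuR, encoded by ELAVL1, and its mRNA cargo. ANP32A (also called LANP) binds the light chain of MAP1B, a microtubule-associated protein.

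Each library held 8838296 to 11055895 gene counts, and 3 counts, the limit that a count of 0 allows, corresponded to 0.271 to 0.339 per 1000000 gene counts (CPM), for counting error only. Between 6652 and 12240 genes had a count. MAP1B held 40.3% to 52.1% of the gene counts of each DCC-IP library against 1.58% to 2.44% of each of the others, so the fold changes of the members and called genes that involve DCC-IP are also given with it left out. The third replicate was the highest of its group in all 3 groups for 13.4% of 7628 genes, against 5.34% for the first and 4.59% for the second. Of 12 noradrenergic neuroblastoma markers 3 had more than 3 counts in every library and TH had none, and their summed counts were 2476 to 4255 in Input, 18877 to 36418 in DCC-IP and 11442 to 15783 in Nrp1-IP. Of 10 markers of other cell types 9 had a row, and 7 of these were at 0 throughout. They summed to at most 40 counts in a library, and the sums in Input (29 to 40) were all COL1A1. Few reads were assigned to the receptor genes: DCC had 0 counts in all 9 libraries, and NRP1 had 198 to 320 counts in Input, 0 to 26 in DCC-IP and 36 to 83 in Nrp1-IP.

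The family fell into a pair of highly counted mRNAs, ANP32E and SET, and a pair that was barely counted, ANP32A and ANP32B. ANP32E and SET were several times lower in both pulldowns than in the lysate. Neither passed the test between the pulldowns. Because a level is a share of its library, less of an mRNA and more of the other RNAs cannot be told apart, and neither can fewer cells and less RNA per cell. Counts were not set against gene length here, so ranks order counts and not molecules. A rank also depends on the counts of the other genes, so it does not compare levels between groups.

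ANP32E had 250776, 269872 and 166378 counts in the Input libraries (replicates 1 to 3), which gave it ranks 2, 1 and 3 in them. It had 52605, 73695 and 66449 counts in DCC-IP and 56605, 58624 and 55112 in Nrp1-IP. All 6 pulldown libraries lay far below all 3 Input libraries, and the pulldowns overlapped in CPM. Scaled by trimmed mean of M values (TMM) over the 9 libraries, ANP32E stood at 28543 ± 6561 CPM in Input, 5492 ± 764 in DCC-IP and 4951 ± 698 in Nrp1-IP (SD, n = 3). By summed counts it ranked 2 in Input, 7 in DCC-IP and 37 in Nrp1-IP. The log2 fold change was −2.26 (SE 0.27) for DCC-IP over Input and −2.43 (SE 0.25) for Nrp1-IP over Input. With MAP1B left out of the table the first was −1.98. Without Input replicate 3, the library with the lowest ANP32E count of its group, they were −2.48 and −2.78.

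SET had 249550, 249013 and 137512 counts in Input, 45547, 46394 and 43871 in DCC-IP, and 59022, 63345 and 61880 in Nrp1-IP. Its Input libraries were again far above all the others, and Input replicate 3 was again the lowest of them. In TMM-scaled CPM it stood at 26446 ± 7988 in Input, 3974 ± 1079 in DCC-IP and 5342 ± 613 in Nrp1-IP (SD, n = 3). By summed counts it ranked 4 in Input, 14 in DCC-IP and 31 in Nrp1-IP. Its place was lower in Nrp1-IP although its summed count was higher there (184247 against 135812 in DCC-IP).

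**Figure D1:**
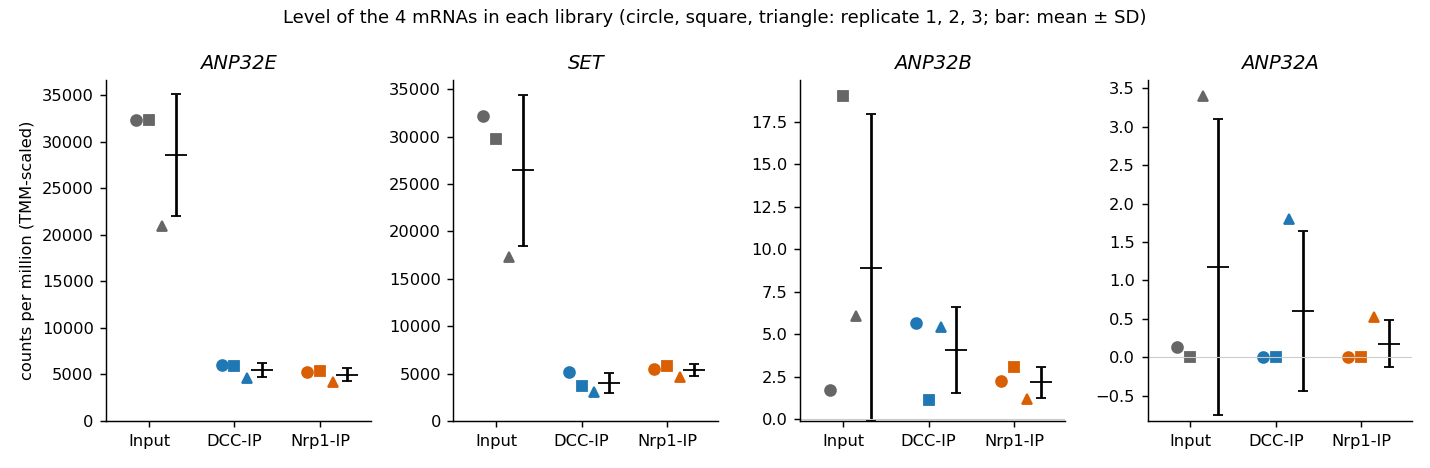
TMM-scaled CPM (y axis, linear, a separate scale for each gene) of ANP32E, SET, ANP32B and ANP32A in the Input, DCC-IP and Nrp1-IP libraries (x axis). Points are libraries, marked by replicate number, and bars are the mean ± SD of 3. ANP32E and SET were at least 17330 CPM in every Input library and at most 5956 CPM in every pulldown library, while ANP32B and ANP32A stayed under 20 CPM.

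SET was called lower in both pulldowns than in the lysate by the quasi-likelihood test of edgeR with Benjamini-Hochberg adjustment over all genes tested. In DCC-IP over Input its log2 fold change was −2.64 (SE 0.30, 95% interval −3.33 to −1.95, adjusted p = 0.00513), which is 6.23-fold lower. In Nrp1-IP over Input it was −2.21 (SE 0.28, 95% interval −2.85 to −1.58, adjusted p = 0.0113), which is 4.64-fold lower. In each comparison 3 of the 4 members passed the filter on low counts, ANP32A being the exception. Of these, ANP32B and SET could be tested against Input, and SET was the 1 called. As background, 3.52% of 6223 genes were called lower and 1.46% higher in DCC-IP over Input, and 3.03% of 6501 genes were called lower and 1.94% higher in Nrp1-IP over Input. The 3 pulldown libraries were all below the 3 Input libraries, without overlap, for 18.2% of genes in the first comparison and 13.8% in the second. The median log2 fold change of all genes was 0.16 and 0.06, so SET lay well below it in both. Both comparisons share the Input libraries, and so are not independent.

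With MAP1B left out, SET in DCC-IP over Input was at −2.32 (adjusted p = 0.0340). The SET calls did not hold without some single libraries. With a library left out, the log2 fold change lay between −2.92 and −2.12 in DCC-IP and between −2.61 and −2.13 in Nrp1-IP. The fits that lost the SET call had few calls of any gene: 0 or 1 in DCC-IP over Input and 0 or 7 in Nrp1-IP over Input. For DCC-IP over Input the adjusted p was 0.0766 without DCC-IP replicate 1 (log2 fold change −2.74) and 0.115 without DCC-IP replicate 2 (−2.23). For Nrp1-IP over Input it was 0.111, 0.117 and 0.0818 without Nrp1-IP replicates 1, 2 and 3, with log2 fold changes of −2.25, −2.28 and −2.13. With the replicate number as a block, the genes called in DCC-IP over Input rose from 310 to 715 (238 higher and 477 lower), and SET stayed called (−2.60, adjusted p = 0.000705).

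**Figure D2:**
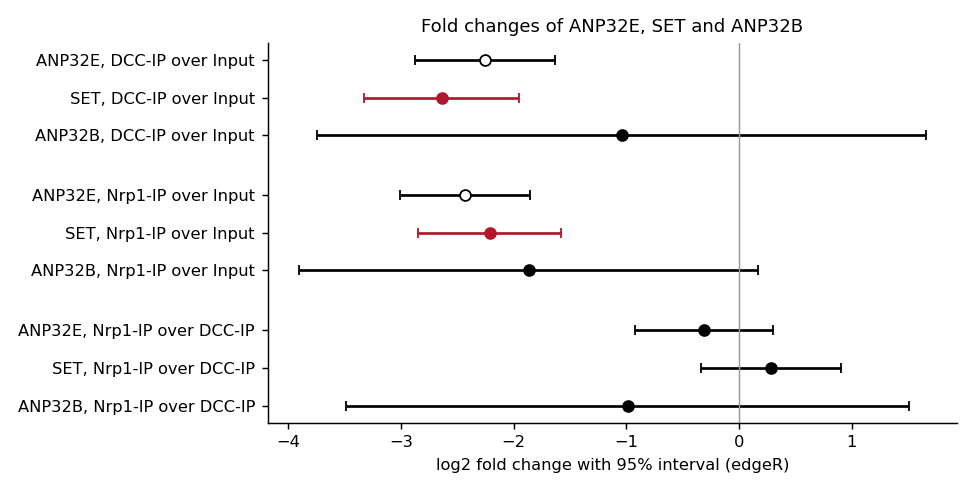
Log2 fold change (x axis) with its 95% interval from edgeR for ANP32E, SET and ANP32B in each comparison (y axis). Red marks adjusted p under 0.05, black marks tested and not called, and open circles mark ANP32E against Input, which was not tested. The intervals of SET against Input end at −1.95 and −1.58, and the 3 intervals between the pulldowns all span 0.

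These decreases had many like them among the most counted genes of the lysate. Of the 20 genes with the most Input counts, 19 had negative values in DCC-IP over Input, with a median log2 fold change of −2.35, and 17 had one in Nrp1-IP over Input, with a median of −1.58. Counted from the lowest, ANP32E took place 11 and SET place 8 of the 20 in DCC-IP over Input, and they took places 4 and 6 in Nrp1-IP over Input. The 20 were chosen on their Input counts, so these values are a description. The gene above ANP32E in the Input order, YWHAE (14-3-3 epsilon), had log2 fold changes of −2.72 and −4.09 in DCC-IP and Nrp1-IP over Input. The gene below it, PAFAH1B2 (a catalytic subunit of platelet-activating factor acetylhydrolase 1B), had −3.05 and 0.17. MAP1B was the exception in DCC-IP, at 4.22.

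**Figure D3:**
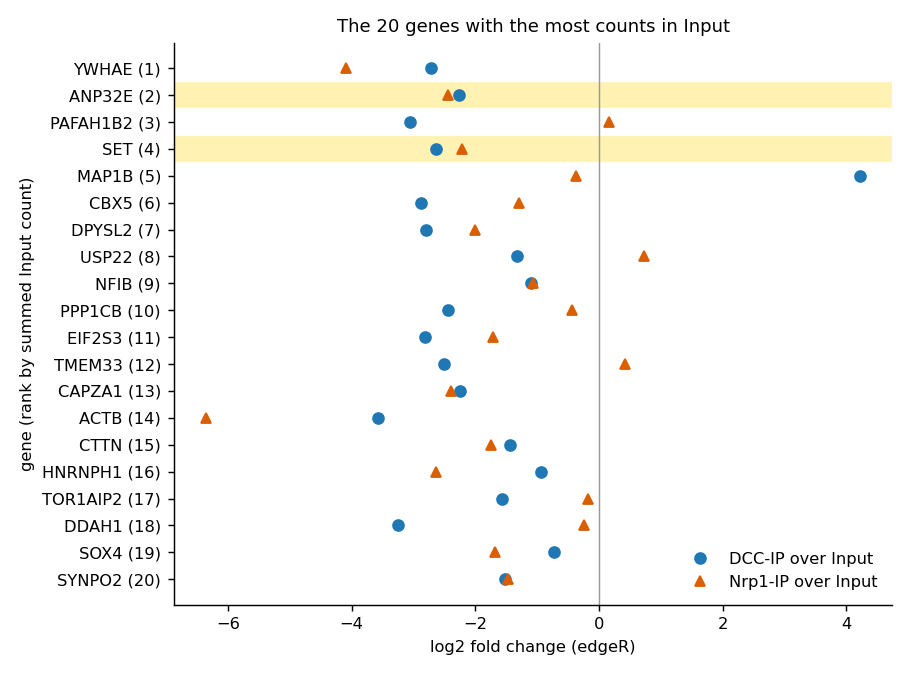
Log2 fold change over Input (x axis) in DCC-IP (circles) and Nrp1-IP (triangles) for the 20 genes with the most Input counts, ranked downwards (y axis). ANP32E and SET are shaded. In both pulldowns they lie at −2.21 or below, while genes such as PAFAH1B2 differ between the pulldowns.

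Between the pulldowns, neither ANP32E nor SET was called. In Nrp1-IP over DCC-IP, the fitted log2 fold change of ANP32E was −0.31 (SE 0.27, 95% interval −0.92 to 0.30, edgeR adjusted p = 0.662) and that of SET was 0.28 (SE 0.28, 95% interval −0.34 to 0.91, adjusted p = 0.709). The intervals leave room for differences of either sign, so equal levels were not shown. Over all 6439 genes tested, 2.56% were called higher and 1.09% lower in Nrp1-IP, and the median log2 fold change was −0.27. With MAP1B left out the median was −0.02, ANP32E was at −0.02 and SET at 0.58, and neither was called. As a share of all gene counts, SET was at 0.601% ± 0.0325 in Nrp1-IP and 0.419% ± 0.00468 in DCC-IP, and ANP32E at 0.557% ± 0.0456 and 0.595% ± 0.102, respectively (SD, n = 3). The shares of SET did not overlap, but those of DCC-IP include the MAP1B counts in their total. With the MAP1B counts taken out of the totals, every DCC-IP library had a higher SET share than every Nrp1-IP library. The direction of the SET difference in shares thus depended on whether MAP1B was counted. In every fit, with other scalings or a library left out, the log2 fold change of SET was positive (0.22 to 0.68) and not called. In TMM-scaled CPM the SET libraries of the pulldowns did overlap, and all 3 Nrp1-IP libraries lay above all 3 DCC-IP libraries for 15.6% of all genes.

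The counts of ANP32E and SET relative to each other do not depend on MAP1B or on scaling. ANP32E had 1.005, 1.08 and 1.21 counts per SET count in Input, 1.15, 1.59 and 1.51 in DCC-IP, and 0.959, 0.925 and 0.891 in Nrp1-IP. ANP32E was thus above SET in every DCC-IP library and below it in every Nrp1-IP library, with Input at or above parity. Of the counts of the 4 genes, ANP32E held 52.3% ± 2.32 in Input, 58.4% ± 4.20 in DCC-IP and 48.0% ± 0.923 in Nrp1-IP (SD, n = 3). SET held 47.7% ± 2.33, 41.6% ± 4.19 and 51.9% ± 0.924. From DCC-IP to Nrp1-IP the share of ANP32E changed by −10.3 percentage points and that of SET by 10.4, and the log2 ratio by −0.60. The pulldowns did not overlap, and the 2-sided exact permutation p was 0.1 for each, the smallest that 3 against 3 libraries allow. These values all describe the same shift, since ANP32E and SET held nearly all counts of the 4 genes. How often other pairs of genes separate in this way was not counted. Adjusted over the 4 genes the p of ANP32E and SET was 0.2 by Benjamini-Hochberg. With 3 libraries per group, this test could therefore not reach 0.05 for this shift. The share of ANP32A (exact permutation p = 1) and that of ANP32B (p = 0.4, adjusted p = 0.533) each averaged under 0.05% in both pulldowns.

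**Figure D4:**
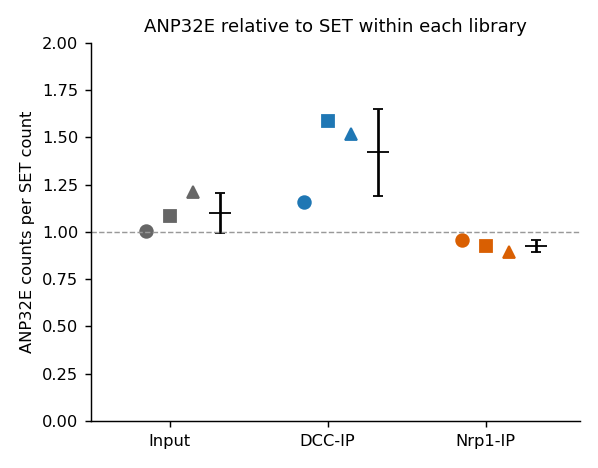
ANP32E counts per SET count (y axis) in each Input, DCC-IP and Nrp1-IP library (x axis), with the mean ± SD of 3 beside the points and a dashed line at 1. The DCC-IP libraries lie between 1.15 and 1.59, and the Nrp1-IP libraries between 0.891 and 0.959.

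ANP32B was counted at a low level in every library. It had 13, 159 and 48 counts in Input, 50, 14 and 78 in DCC-IP, and 24, 33 and 16 in Nrp1-IP. The groups overlapped, and Input replicate 2 was the highest of all 9. In TMM-scaled CPM its means were 8.92 ± 9.02 in Input, 4.07 ± 2.55 in DCC-IP and 2.16 ± 0.922 in Nrp1-IP (SD, n = 3). No comparison called it: the edgeR log2 fold change was −1.04 (SE 1.19, adjusted p = 0.676) for DCC-IP over Input, −1.87 (SE 0.88, adjusted p = 0.270) for Nrp1-IP over Input and −0.99 (SE 1.11, adjusted p = 0.761) for Nrp1-IP over DCC-IP. The first of these rested on Input replicate 2, without which it was 0.12. With MAP1B left out the first was −0.65 and the third −0.76.

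ANP32A was at the edge of detection. It had 26 counts in DCC-IP replicate 3, 7 in Nrp1-IP replicate 3, 27 in Input replicate 3 and 1 in Input replicate 1, and 0 in the other 5 libraries. All but 1 of its counts came from the libraries numbered 3, which also held the most for 13.4% of genes. It passed the filter on low counts in no comparison. Fitted without the filter, its log2 fold changes were −0.83 (DCC-IP over Input), −2.80 (Nrp1-IP over Input) and −1.66 (Nrp1-IP over DCC-IP), with edgeR adjusted p between 0.543 and 0.859. Each rested on counts in 1 or 2 libraries per group, and no difference was detectable at this depth.

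Low counts of this kind were not particular to ANP32A and ANP32B. PTMA and NPM1, which encode abundant nuclear proteins of dividing cells, had 0 to 60 and 0 to 22 counts, and H2AFZ, which encodes the histone H2A.Z that ANP32E binds, had 6 counts in Input replicate 3 and 0 in the other libraries. A low count therefore says only that few reads were assigned to the gene. Reads aligned to more than 1 place made up 2.83% to 3.83% of each library and were counted on no gene. The RefSeq gene table (GRCh38.p14) lists 19 SET pseudogenes with SETP symbols, of which 0 had a row in the counts, and 5 ANP32 pseudogenes, of which 2 had a row. ANP32BP1 had 3 counts in Input replicate 2 and 1 in Input replicate 3, and ANP32AP1 and ANP32D had none in any library. How reads that match both a gene and its pseudogenes were placed was not tested. No other gene in that table overlaps ANP32E. SET overlaps DYNC2I2, counted under its older symbol WDR34 with 0 to 368 counts. The strand setting of the counting is not given in the sources used here.

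Across the 9 libraries, ANP32E and SET followed each other closely (Pearson r = 0.973 on log2 CPM). Such an r mostly restates the gap between the lysate and the pulldowns, and the libraries share their groups, so it is given as a description. Among 3697 genes with a mean of at least 50 counts, those most like SET were TSPYL1 (r = 0.993), another protein of the nucleosome assembly protein family, PPP2R5C (0.991), a regulatory B subunit of PP2A, and REEP3 (0.988), a protein that shapes the endoplasmic reticulum. TSPYL1 had 56674, 44454 and 30229 counts in Input, 12556, 14146 and 11296 in DCC-IP, and 13781, 14855 and 15325 in Nrp1-IP. Those most like ANP32E were ZBED5-AS1 (0.989), an RNA named as antisense to ZBED5, CAPZA1 (0.984), which caps actin filaments, and REEP3 (0.982). An r above 0.9 was reached by 2.79% of the genes for SET and by 2.46% for ANP32E.

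ANP32B had no gene with an r above 0.9. The closest were BEST1 (0.849) and FTH1 (0.840), adjacent genes whose reads may not be separable without strand, and the clone-named CTD-3025N20.3 (0.838). FTH1, the heavy chain of ferritin, shared the peak in Input replicate 2, with 694 counts there and 0 to 100 elsewhere. For ANP32A the closest of 3698 genes were NONO (0.984), an RNA-binding protein of paraspeckles, PSMD11 (0.981), a proteasome subunit, and the clone-named RP13-638C3.4 (0.964). NONO had 11182, 2236 and 13172 counts in replicate 3 of DCC-IP, of Nrp1-IP and of Input, against 187 to 532 in the first and second replicates. These likenesses rest on few libraries and, for ANP32A, on a gene at 0 in most of them.

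The genes around the 4 mRNAs were taken as lists of 91 genes, 89 of which had a row. Among PP2A subunits, 18 of 19 were counted. PPP2R5C had 20384, 17417 and 11842 counts in Input, 2387, 3357 and 2838 in DCC-IP, and 3768, 4628 and 4881 in Nrp1-IP. Its pulldown libraries all lay below Input. Of 8 tested subunits it was the 1 called lower in DCC-IP over Input (log2 fold change −2.96, SE 0.36, edgeR adjusted p = 0.00520), and 0 were called higher. In Nrp1-IP over Input, 2 of 11 were called lower, PPP2R5C (−2.35, SE 0.29, adjusted p = 0.0113) and STRN3 (−1.53, SE 0.29, adjusted p = 0.0303), a striatin that serves as a B subunit, and 0 higher. STRN3 had 6370, 6732 and 6953 counts in Nrp1-IP against 17826, 14424 and 10252 in Input. The median log2 fold change of the tested subunits was −0.55 and −0.54, beside 0.16 and 0.06 over all genes. Between the pulldowns 0 of 9 were called, with a median of 0.07. The catalytic subunit genes PPP2CA and PPP2CB had at most 67 and 17 counts in a library. With the replicate block, PPP2R5E (−1.16, adjusted p = 0.0160), another B subunit, was called lower too in DCC-IP over Input. With MAP1B left out, PPP2R5C was at −2.69 there (adjusted p = 0.0307). The PPP2R5C calls were lost without DCC-IP replicate 1 or 2 (adjusted p 0.0766 to 0.105) and without any Nrp1-IP replicate (0.0836 to 0.117). STRN3 was lost without any library of the pair but Input replicate 3 (0.0551 to 0.197), and with all 9 libraries in one fit (0.174).

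Of 8 PP2A regulators, 4 or 5 could be tested and 0 were called in any comparison. The 3 with the most counts were ARPP19, a PP2A inhibitor of mitosis, PPME1, a PP2A methylesterase, and TIPRL, which binds PP2A-type catalytic subunits. Their log2 fold changes over Input were 1.19, 3.48 and 0.91 in DCC-IP and 0.43, 0.77 and 0.95 in Nrp1-IP, all with edgeR adjusted p of 0.176 or more. PPME1 had 1242, 74 and 202 counts in DCC-IP against 3, 47 and 58 in Input. ARPP19 had 1485, 925 and 410 counts in replicate 3 of DCC-IP, of Nrp1-IP and of Input, and 6 to 59 in the other libraries. The median of the list was 1.05 and 0.77 over Input and −0.31 between the pulldowns.

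Of 27 histone chaperones, 14 or 15 were tested in each comparison. RBBP4, a histone-binding subunit of chromatin assembly factor 1 and other complexes, was higher in Nrp1-IP than in DCC-IP (1 of 15 called higher, 0 lower). It had 17211, 17675 and 20849 counts in Nrp1-IP, 3078, 3579 and 6736 in DCC-IP, and 9874, 8569 and 9673 in Input. The pulldowns did not overlap, and the log2 fold change was 1.98 (SE 0.30, edgeR adjusted p = 0.00772), or 2.22 with MAP1B left out. It was no longer called without Nrp1-IP replicate 1 or 2 (adjusted p 0.0613 to 0.0700). NAP1L1, a nucleosome assembly protein of the same family as SET, was called lower in Nrp1-IP over Input (−2.19, SE 0.35, adjusted p = 0.0194), as 1 of 14 with 0 higher. It had 304, 289 and 406 counts in Nrp1-IP against 847, 1696 and 879 in Input, and its call was lost without any Nrp1-IP replicate or Input replicate 1 (0.0523 to 0.158), and with all 9 libraries in one fit (0.177). In DCC-IP over Input 0 of 14 were called. There the 3 with the most counts were RBBP4 at −1.52 (adjusted p = 0.0517, all 3 DCC-IP libraries below all 3 Input libraries), NASP, a chaperone of H3 and linker histones, at 1.21 (adjusted p = 0.11), and NAP1L4 at −0.52 (adjusted p = 0.889). With the replicate block, RBBP4 was called lower (−1.57, adjusted p = 0.00797) and NASP higher (1.22, adjusted p = 0.0188). The block also called NASP higher in Nrp1-IP over Input (1.22, edgeR adjusted p = 0.0290). The list medians were 0.10 and 0.21 in DCC-IP and Nrp1-IP over Input and −0.73 between the pulldowns, beside 0.16, 0.06 and −0.27 over all genes.

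Of 22 genes for H2A.Z and its exchange complexes, 15 were tested over Input and 12 between the pulldowns. In Nrp1-IP over Input, BRD8, a bromodomain subunit of the EP400 complex, was called higher (log2 fold change 2.05, SE 0.45, edgeR adjusted p = 0.0438) and MORF4L1, a chromodomain subunit, lower (−4.80, SE 0.97, adjusted p = 0.0352). BRD8 had 7556, 7760 and 7112 counts in Nrp1-IP against 2009, 1351 and 626 in Input, and such a separation upwards held for 17.7% of genes. MORF4L1 had 141, 118 and 127 counts in Nrp1-IP and 735, 762 and 6019 in Input, and without Input replicate 3 its log2 fold change was −3.12. Both calls were lost without any Nrp1-IP replicate (BRD8 also without Input replicate 1 or 2), with adjusted p of 0.0562 to 0.217 for BRD8 and 0.131 to 0.198 for MORF4L1. BRD8 was also lost with all 9 libraries in one fit (0.0794) and with RLE size factors (0.0503). With the replicate block, BRD8 (2.20) and TRRAP (2.37), a scaffold of the EP400 complex, were called higher in Nrp1-IP over Input. ING3 (−1.50) and MORF4L1 (−3.87) were called lower there (edgeR adjusted p of 0.00680 to 0.0199). In DCC-IP over Input the block called BRD8 (1.78) and TRRAP (2.63) higher. It called MORF4L1 (−2.22) and H2AFV (−1.85), the other H2A.Z gene, lower there (adjusted p of 0.00665 to 0.0372). Without it 0 were called there, and 0 between the pulldowns, where the most counted member after BRD8, ING3, had a log2 fold change of −1.04 (and −0.69 in DCC-IP over Input). H2AFV, the next most counted, was at 2.05 between the pulldowns (edgeR adjusted p = 0.168). It had 3081, 2716 and 4585 counts in Nrp1-IP against 218, 278 and 2150 in DCC-IP. With the replicate block H2AFV was called higher in Nrp1-IP over DCC-IP (2.62, adjusted p = 0.00983). The list medians were 0.33 and 0.07 over Input and −0.54 between the pulldowns.

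The SET complex partners HMGB2, APEX1, NME1 and TREX1 had few counts, and at most 2 of the 4 could be tested, with 0 called. NME1, a nucleoside diphosphate kinase, had a log2 fold change of 0.22 in DCC-IP over Input (edgeR adjusted p = 0.955) and of −1.83 in Nrp1-IP over Input (adjusted p = 0.267). Of 8 other binding partners, 5 to 7 were tested. MAP1B was called higher in DCC-IP over Input (log2 fold change 4.22, SE 0.27, adjusted p = 0.000658) and lower in Nrp1-IP over DCC-IP (−4.75, SE 0.37, adjusted p = 0.000925), and no other partner was called. Its libraries did not overlap in either comparison, which held for 15.2% of genes upwards in DCC-IP over Input and for 10.9% downwards in Nrp1-IP over DCC-IP. Without DCC-IP replicate 1 its adjusted p over Input was 0.0510, and without DCC-IP replicate 3 its log2 fold change was 4.82. XPO1, the exportin that carries ANP32 proteins out of the nucleus, stood at 1.91 and 1.36 over Input (adjusted p = 0.272 and 0.301). ELAVL1 had 0 to 31 counts in a library.

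**Figure D5:**
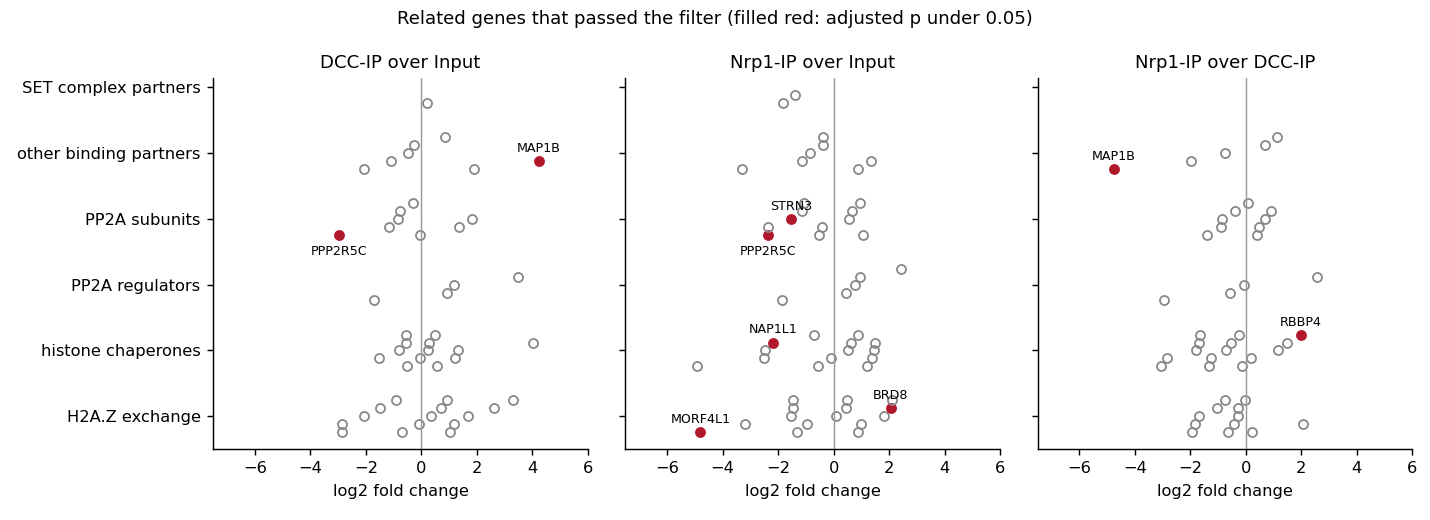
Log2 fold change (x axis) of the listed genes that passed the filter on low counts, by list (y axis), in each of the 3 comparisons. Filled red points with names had an edgeR adjusted p under 0.05 and open points did not. Over Input, PPP2R5C is called lower in both pulldowns, at −2.96 and −2.35.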

How the data were processed

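RNA sequencing libraries of DCC-IP, Nrp1-IP and Input (3 each, SH-SY5Y cells) were analysed. The authors aligned reads with HISAT2 2.1.0 to hg19 and counted them per gene with HTSeq 0.11.0, per the submitters' processing notes, and deposited raw counts per gene symbol with no normalization; the annotation and strand setting are not given in the sources used here. Reads on no gene, ambiguous, unaligned or aligned more than once sit in 5 summary lines, which were left out (no feature 48.7% to 55.8% of a library). Amplified reads are not independent molecules.

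Pairs of groups were compared on their 6 libraries with edgeR 4.0.16 in R 4.3.3 (filterByExpr with minimum count 10, TMM, glmQLFit, glmQLFTest), and Benjamini-Hochberg adjusted p under 0.05 over all genes tested was called. Standard errors were the log2 fold change divided by the square root of F. The study's methods name edgeR and this threshold. They state independent biological replicates in general, but the labels do not say whether these libraries came from separate cultures, so the p-values may measure technical spread. Percentages were compared with exact permutation tests. Likeness was Pearson's r of log2 CPM (prior count 2). Alternatives were RLE size factors, library size only, DESeq2 1.42.0, no filter, all 9 libraries in one fit, MAP1B left out, the replicate number as a block, and each library left out.

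Between DCC-IP and Input, the deviations of same-numbered libraries from their group means correlated at r = 0.117, 0.187 and 0.421 over 7628 genes. Differently numbered pairs stood at −0.310 to 0.136, and the numbers come from the sample labels. Counts of replicates differed by more than counting noise (chi-square per degree of freedom 48.6 to 232), so no library was a second deposit of the same counts, which does not show that they came from separate samples.

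The members and lists were chosen with earlier results of these data known. Named genes are the 4 members, related symbols, every listed gene called in the comparison described or otherwise up to 3 with the most counts, the 3 genes most like each member, the neighbours of ANP32E in the Input order, DCC, NRP1 and MAP1B. PTMA, NPM1, H2AFZ, PPP2CA, PPP2CB and ELAVL1, and genes called only with the replicate block, were named after their values were seen. Of the 4 members, 4 matched the RefSeq table (GRCh38.p14), used for names and neighbours only, since its build differs from hg19.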

Additional observations from a re-analysis of the deposited data

Results flagged for a closer look

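Among the listed genes, 2 were called between the pulldowns. MAP1B was 1 of 5 other binding partners tested, and RBBP4 was 1 of 15 histone chaperones. With the replicate block 3 were called, H2AFV being the third. Over all 6439 genes tested, 2.56% were called higher and 1.09% lower in Nrp1-IP. All 3 Nrp1-IP libraries lay above all 3 DCC-IP libraries for 15.6% of genes, and below them for 10.9%. MAP1B was lower in Nrp1-IP than in DCC-IP, with a log2 fold change of −4.75 (edgeR adjusted p = 0.000925, all 3 Nrp1-IP libraries below all 3 DCC-IP libraries). RBBP4 was higher in Nrp1-IP than in DCC-IP, with a log2 fold change of 1.98 (edgeR adjusted p = 0.00772, all 3 Nrp1-IP libraries above all 3 DCC-IP libraries).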

How the results depend on the processing

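SET stayed called against Input under every alternative that kept all libraries (log2 fold change −2.32 to −2.73 in DCC-IP and −1.82 to −2.40 in Nrp1-IP), and ANP32E, SET and ANP32B were called between the pulldowns in none. With a library left out, SET over Input ranged from −2.92 to −2.12 in DCC-IP (calls lost without DCC-IP replicate 1 or 2) and from −2.61 to −2.13 in Nrp1-IP (lost without any Nrp1-IP replicate). ANP32E over Input was −1.95 in DCC-IP and −2.05 in Nrp1-IP by library size only and −1.98 in DCC-IP without MAP1B, and −2.48 to −1.83 and −2.78 to −2.32 with a library left out. ANP32B in DCC-IP over Input ranged from −1.55 to 0.12, positive without Input replicate 2. The ANP32A share of the 4 genes changed from DCC-IP to Nrp1-IP by −0.00585 percentage points, and by −0.00978 to 0.00199 with a library left out, positive without DCC-IP replicate 3. The cause of these shifts was not tested.

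Counts of called genes moved far more. For Nrp1-IP over DCC-IP (235 called) they were 705 by DESeq2, 484 with no filter, 369 with the replicate block and 74 to 346 with a library left out (lowest without Nrp1-IP replicate 1). For DCC-IP over Input (310) they were 1032 by DESeq2, 780 with 9 libraries in one fit, 715 with the replicate block, 73 without MAP1B and 0 to 250 with a library left out. For Nrp1-IP over Input (323) they were 518 by library size only, 966 by DESeq2, 882 with no filter, 125 with 9 libraries in one fit, 556 with the replicate block and 0 to 441 with a library left out. The 0 came from edgeR without DCC-IP replicate 1 (1554 genes at an unadjusted p under 0.05) and without Nrp1-IP replicate 1 (1061). The block changed no call of a member, and moved the listed genes called from 2 to 3 in Nrp1-IP over DCC-IP, from 2 to 9 in DCC-IP over Input and from 5 to 8 in Nrp1-IP over Input, where MORF4L1 moved to −3.87. Same-numbered libraries of Nrp1-IP correlated at 0.0989 to 0.361 with DCC-IP and −0.00430 to 0.364 with Input. Differently numbered pairs stood at −0.208 to 0.0986 and at −0.370 to 0.168. With DCC-IP every same-numbered pair thus lay above every other pair, and with Input the pair of replicate 2 did not. What the numbers mark was not tested.

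Scaling moved the split of calls. The share called higher was 70.2% in Nrp1-IP over DCC-IP (80.9% by RLE, 82.3% by library size only, 85.0% without MAP1B), 29.4% in DCC-IP over Input (45.8% by library size only) and 39.0% in Nrp1-IP over Input (24.3% by RLE, 67.8% by library size only). Library size only shifted the median gene to 0.48 in DCC-IP and 0.44 in Nrp1-IP over Input. Depth limits ANP32A and ANP32B, whose counts reach 27 and 159.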
